A study of Bos taurus with 8 samples.

Results

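Bulk testis RNA of Chinese Red Steppes cattle was read for 10 genes of the GDNF and KIT signals that act on spermatogonial stem cells. The 10 genes were the growth factor GDNF, its receptors GFRA1, GFRA2 and RET, the ligand KITLG and its receptor KIT, and the spermatogonial genes UCHL1, SALL4, FOXO1 and ETV5. They were listed by symbol, with no threshold on a measured value, and all 10 were found among the 30983 genes of the deposited count table. The immature group was testicular lobule tissue of 3 calves castrated at 1 day of age, and the mature group was the same tissue of 3 bulls slaughtered at 24 months. No treatment or engineered allele was named for either group, and age, castration and slaughter cannot be told apart. The labels number the animals within a group but name no batch or pairing. In addition, small RNA of the 3 animals of each age had been pooled into 1 library per age.

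GDNF is secreted by somatic cells of the testis, mainly Sertoli and peritubular cells. It binds the coreceptor GFRA1 on the germ cell surface, and the complex switches on the receptor tyrosine kinase RET. In mice this signal keeps spermatogonial stem cells from differentiating. KITLG, also called stem cell factor, is made by Sertoli cells and binds KIT, a receptor tyrosine kinase that appears as mouse spermatogonia begin to differentiate. The GDNF and KIT receptors therefore mark successive stages of the same lineage in mice. UCHL1, a deubiquitinating enzyme, marks gonocytes and spermatogonia in cattle.

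The 6 mRNA libraries held 14139087 to 15846257 counts, and 1 count was worth 0.0625 to 0.0688 CPM, the unit used for levels here (counts scaled to library size). Of the 30983 genes, 28656 had a count and 19972 were tested. The defining markers fitted the labelled tissue. The summed level of 12 spermatid markers was 15.5 to 18.1 CPM in immature and 11293 to 17490 CPM in mature libraries. The 11 germ cell markers with counts summed to 80.7 to 161 CPM in immature and 1900 to 2028 CPM in mature libraries. The 15 Sertoli cell markers summed to 10218 to 13777 CPM in immature and 1821 to 2007 CPM in mature libraries. Immature replicates 1 and 3 stood apart from immature replicate 2. Over 3 times above the rest of their group, at 5 CPM or more, stood 154 genes in immature 1, 157 in immature 3, 21 in immature 2 and 11 to 16 in each mature library. GFRA1 was among the 157. In immature 1 the epididymis and efferent duct list, 9 genes with counts, summed to 687 CPM against 48.3 and 95.3 CPM in immature 2 and 3, led by WFDC2 at 469 CPM and PAX2 at 62.9 CPM. Results for the 10 genes that rest on either library are given with and without it.

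Of the 10 genes, 6 were called lower in mature testis, 1 was called higher and 3 were not called. A call needed an adjusted p under 0.05 and a log2 fold change beyond 1 in edgeR's quasi-likelihood test. Of all genes tested, 30.4% were called lower, 31.7% higher and 62% in either direction. The median log2 fold change of the 10 genes was -1.27, against -0.04 over all genes tested. In 7 of the genes all 3 mature libraries lay below all 3 immature libraries, and in 1 they lay above. The groups of 40.9% of all genes were separated in the lower direction, and those of 40.9% in the higher direction, 81.7% in all. The genes that fell were GDNF, GFRA1, GFRA2, RET, KITLG and FOXO1, and the gene that rose was SALL4. KIT, UCHL1 and ETV5 were not called. These directions are of CPM, a share of all testis RNA, and most of them turned in sign when the scale was set by Sertoli cell markers. On that scale GDNF, GFRA1, RET and KITLG were not called. It is a scale per marker count and not per Sertoli cell, since marker RNA per cell may differ between ages. By CPM with no threshold on the fold, UCHL1 passed as well, where 78.4% of all genes passed. In bulk tissue, fewer cells of a type and less RNA per cell cannot be told apart.

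**Figure D1:**
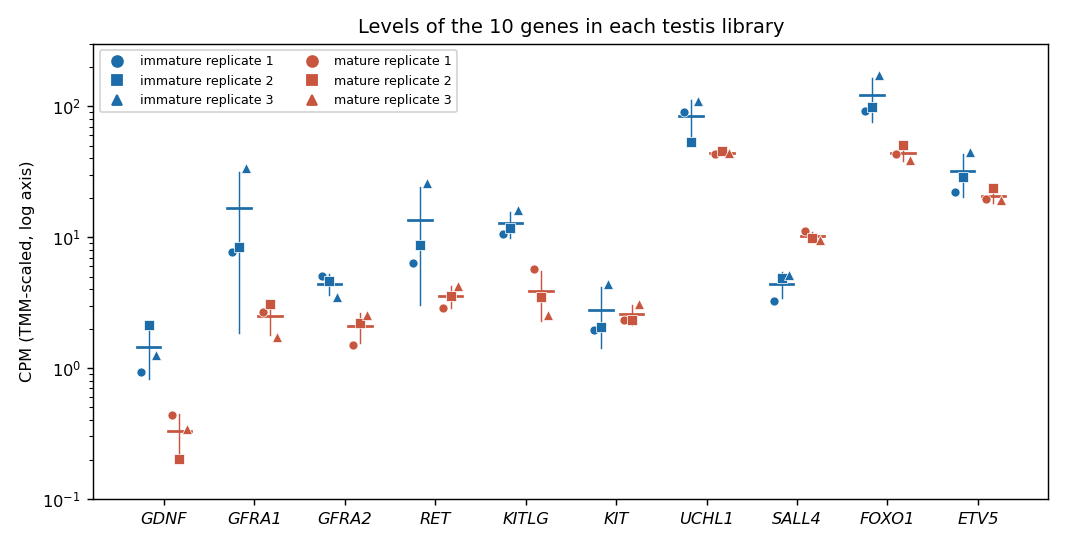
Level of each of the 10 genes in CPM on a log axis, with a point for each library (3 immature in blue, 3 mature in red), a horizontal line for the group mean and a vertical line for 1 SD (n = 3). GFRA1 and RET in immature replicate 3, at 33.6 and 25.8 CPM, stand well above the other immature libraries, and the groups of KIT and ETV5 overlap.

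The ligand GDNF fell and rested on few counts at both ages. It had 14, 33 and 19 counts in immature replicates 1 to 3 and 7, 3 and 5 counts in mature replicates 1 to 3. The levels were 0.936, 2.13 and 1.26 CPM in immature and 0.438, 0.201 and 0.344 CPM in mature libraries. Every immature library was above every mature library, although the lowest immature value rested on 14 counts. The mean was 1.44 ± 0.62 CPM in immature and 0.328 ± 0.119 CPM in mature testis (SD, n = 3 each). This was a log2 fold change of -2.11 (SE 0.48, 95% interval -3.21 to -1.004, adjusted p = 0.00351).

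GFRA1, the coreceptor through which GDNF acts on stem cells, had the largest decrease of the 10 genes with all libraries, whereas without immature 3 GDNF had it (-2.20 against -1.69 on the log2 scale). Its level was 7.69, 8.47 and 33.6 CPM in immature and 2.69, 3.08 and 1.72 CPM in mature libraries. The groups did not overlap, but immature 3 was 3.97 times the higher of the other immature libraries. GFRA1 had a log2 fold change of -2.73 (SE 0.64, 95% interval -4.25 to -1.21, adjusted p = 0.00581). Without immature 3 it was -1.69 (SE 0.30, adjusted p = 0.000935), so the call held and the size fell. Without immature 1 it was -3.08. With immature 2 as the lone immature library, assumed to vary as the mature ones do, it was -1.77 (adjusted p = 0.00184).

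RET, the kinase that carries the GDNF signal into the cell, showed the same uneven immature group. Its level was 6.35, 8.80 and 25.8 CPM in immature and 2.88, 3.55 and 4.27 CPM in mature libraries. Immature 3 was again the highest, at 2.94 times the higher of the other immature libraries. In edgeR the log2 fold change of RET was -1.94 (SE 0.53, 95% interval -3.18 to -0.70, adjusted p = 0.0105), and without immature 3 it was -1.09 (SE 0.28, adjusted p = 0.00706). RET shares part of its span with CSGALNACT2 in the RefSeq annotation of another assembly. CSGALNACT2 had 278 to 483 counts in the 6 libraries. No source says whether the counting used strand, so reads of the overlap are uncertain.

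GFRA2, the coreceptor preferred by the related ligand neurturin, changed least of the GDNF receptors with all libraries. Without immature 3, RET changed least (-1.09 against -1.22 for GFRA2 on the log2 scale). The level of GFRA2 was 5.08, 4.66 and 3.50 CPM in immature and 1.5, 2.21 and 2.55 CPM in mature libraries. Here immature 3 was the lowest immature library, unlike for GFRA1 and RET. For GFRA2 the log2 fold change was -1.08 (SE 0.31, 95% interval -1.79 to -0.37, adjusted p = 0.011). The call stood at the edge of the threshold: without immature 1 the value was -0.98 (adjusted p = 0.0267), and without mature 1 it was -0.83 (adjusted p = 0.0568).

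KITLG, the ligand of KIT, was lower in every mature library. It stood at 10.5, 11.8 and 16.1 CPM in immature and 5.69, 3.48 and 2.55 CPM in mature testis. The means were 12.8 ± 2.91 CPM and 3.91 ± 1.61 CPM (SD, n = 3 each). KITLG had a log2 fold change of -1.70 (SE 0.32, 95% interval -2.45 to -0.96, adjusted p = 0.00128), and it was -1.51 without immature 3. The Sertoli cell list moved with GDNF and KITLG: 11 of its 15 tested markers were called lower and 3 higher, and none was at 0. Of the 6 peritubular and smooth muscle markers, 5 were called lower and 0 higher. They summed to 1618 to 2837 CPM in immature and 598 to 611 CPM in mature libraries. The part of either list in the levels of these ligands was not tested.

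KIT itself did not pass the test. It had 29, 32 and 66 counts in immature and 37, 35 and 45 counts in mature libraries. This was 1.94, 2.07 and 4.36 CPM in immature and 2.31, 2.34 and 3.10 CPM in mature testis. The mature libraries lay between the lowest and the highest immature library. KIT had a log2 fold change of -0.11 (SE 0.38, adjusted p = 0.8), and its 95% interval of -0.98 to 0.76 leaves room for a change of either sign. Its sign turned without immature 3, to 0.36 (SE 0.32, adjusted p = 0.327), and without mature 1, to 0.02 (adjusted p = 0.965).

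KIT is also made by Leydig cells, mast cells and melanocytes. The 7 Leydig cell markers summed to 1801 to 2986 CPM in immature and 1532 to 2871 CPM in mature libraries, 1 called higher and 2 lower. The 6 mast cell markers with counts summed to 12.9 to 83.0 CPM in immature and 8.95 to 20.9 CPM in mature libraries. Of the 4 tested, 2 were called higher and 2 lower, and the high value was GATA2 at 77.5 CPM in immature 1. TPSB2, a mast cell tryptase, was at 1.42 to 3.57 CPM in immature and 0 to 0.201 CPM in mature libraries. The 6 melanocyte markers summed to 17.5 to 25.2 CPM in immature and 88.1 to 94.6 CPM in mature libraries, led by TYR at 47.0 to 56.3 CPM, and 3 of the 4 tested were called higher. None of these lists had a marker at 0 in all 3 libraries of an age, and their part in the KIT level was not tested.

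**Figure D2:**
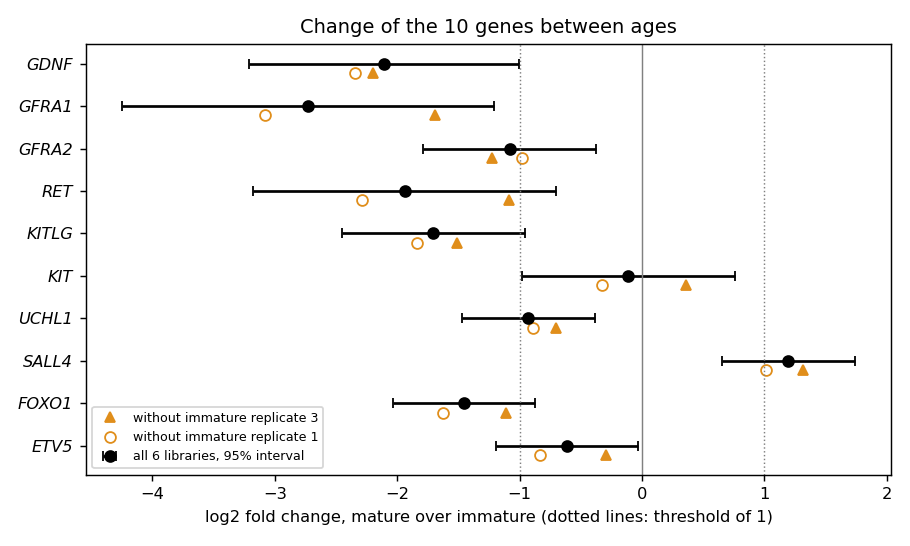
Log2 fold change, mature over immature, of each of the 10 genes, with its 95% interval from edgeR (black, 3 libraries per age) and the value without immature replicate 3 (triangles) or without immature replicate 1 (open circles). GFRA1 moves from -2.73 to -1.69 and RET from -1.94 to -1.09 without immature 3, while KIT crosses 0.

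A ratio of 2 genes within a library does not depend on how libraries are scaled. It compares counts and not molecules, since gene lengths differ, so only its change between ages was read. With 3 libraries per age, the exact two-sided permutation test cannot give a p below 0.1, and p was adjusted over 5 ratios. KITLG counts were 5.41, 5.69 and 3.68 times KIT counts in immature libraries and 2.46, 1.49 and 0.822 times in mature libraries. The ratio of ligand to receptor was thus lower in every mature library (log2 difference -1.75, exact p = 0.1, adjusted p = 0.167). KIT counts were 0.252, 0.244 and 0.130 times GFRA1 counts in immature libraries and 0.860, 0.761 and 1.8 times in mature libraries. KIT relative to GFRA1 was higher in every mature library, again without overlap (log2 difference 2.40, exact p = 0.1, adjusted p = 0.167).

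GDNF did not separate from its receptors in this way. The ratio of GDNF to GFRA1 was 0.122, 0.252 and 0.0373 in immature and 0.163, 0.0652 and 0.2 in mature libraries. The groups overlapped (log2 difference 0.30, exact p = 0.7, adjusted p = 0.8). Its sign turned without immature 3, to -0.45, and without mature 3, to -0.02. GDNF over RET overlapped too (log2 difference -0.44, exact p = 0.8, adjusted p = 0.8), and without immature 2 it was 0.07. RET over GFRA1, a ratio added after the values were seen, was 0.826, 1.04 and 0.768 in immature and 1.07, 1.15 and 2.48 in mature libraries. That is a log2 difference of 0.74 with no overlap (exact p = 0.1, adjusted p = 0.167).

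**Figure D3:**
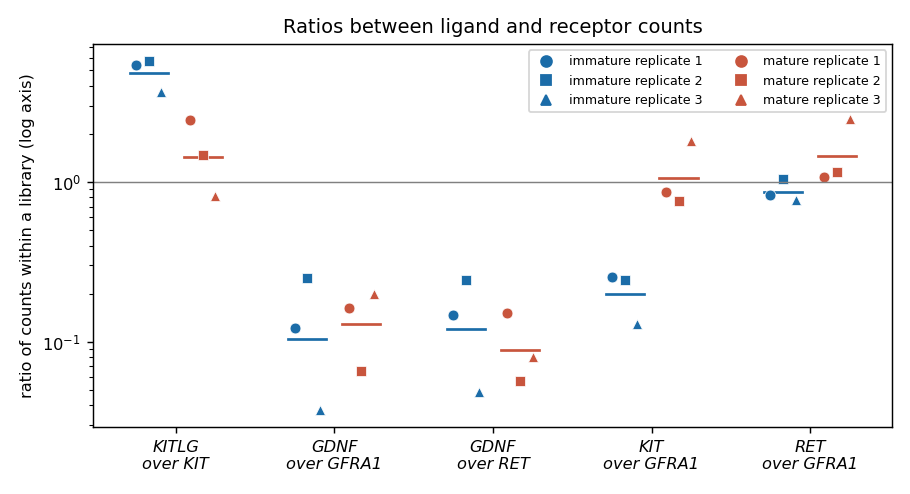
Ratio of the counts of 2 genes within each library on a log axis, with a point for each of the 3 immature (blue) and 3 mature (red) libraries and a line for the geometric mean. KITLG over KIT is lower and KIT over GFRA1 is higher in all mature libraries, while the ratios of GDNF to GFRA1 and to RET overlap between ages.

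SALL4, a zinc finger factor of gonocytes and undifferentiated spermatogonia, was the gene of the set that rose. It stood at 3.28, 4.85 and 5.15 CPM in immature and 11.1, 9.85 and 9.57 CPM in mature libraries. All mature libraries were above all immature ones, and the immature libraries varied more than the mature ones. SALL4 had a log2 fold change of 1.20 (SE 0.24, 95% interval 0.66 to 1.74, adjusted p = 0.00156). Leaving out any library gave 1.01 to 1.32. The germ cell list rose with it, 10 of its 11 tested markers being called higher and 1 lower. DDX4, an RNA helicase of germ cells, went from 16.9 ± 4.34 to 406 ± 29.5 CPM (SD, n = 3 each). The part of germ cell number in the SALL4 level was not tested.

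FOXO1, a transcription factor held in check by PI3K and AKT signalling and needed by mouse spermatogonial stem cells, fell. It was at 91.9, 99.2 and 173 CPM in immature and 43.3, 50.9 and 39.0 CPM in mature libraries. The groups did not overlap, and immature 3 was the highest. Its log2 fold change was -1.45 (SE 0.25, 95% interval -2.03 to -0.87, adjusted p = 0.000859), and without immature 3 it was -1.11 (adjusted p = 0.000125). FOXO1 is also made by endothelial cells. The 6 endothelial markers, all called lower and none at 0, summed to 247, 316 and 409 CPM in immature and 58.4 to 67.0 CPM in mature libraries, with immature 3 highest. Their part in the FOXO1 level was not tested.

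ETV5, a transcription factor that GDNF induces in mouse stem cells and that mouse Sertoli cells also make, did not pass. It stood at 22.1, 28.8 and 44.7 CPM in immature and 19.5, 23.7 and 19.2 CPM in mature libraries. Mature 2 was above immature 1, so the groups overlapped. Its log2 fold change was -0.61 (SE 0.25, 95% interval -1.19 to -0.03, adjusted p = 0.0513). It was -0.29 (adjusted p = 0.16) without immature 3 and -0.83 (adjusted p = 0.00701) without immature 1, in neither case past the fold threshold.

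UCHL1 missed the call by the size of its fold and not by its p. Its level was 90.5, 53.6 and 109 CPM in immature and 43.4, 45.6 and 43.8 CPM in mature libraries. The mature libraries differed by little, and immature 2 was close above them. The log2 fold change was -0.93 (SE 0.24, 95% interval -1.47 to -0.39, adjusted p = 0.00642). Without immature 2 it was -1.18 (adjusted p = 0.00016) and passed. Without immature 1 and 3, the libraries that stand apart, it was -0.28 (adjusted p = 0.112).

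Immature 3 was the highest immature library for 8 of the 10 genes, all but GDNF and GFRA2. The ratio of immature 3 to the higher of immature 1 and 2 was 3.97 for GFRA1, 2.94 for RET, 2.11 for KIT, 1.75 for FOXO1 and 1.55 for ETV5. The median of this ratio over all genes tested was 0.906. Of all genes tested, 1.09% had a ratio as high as GFRA1, 1.79% as high as RET and 3.23% as high as KIT. The germ cell markers were not raised to the same extent, at 80.7, 149 and 161 CPM in immature 1 to 3. ZBTB16, a zinc finger factor of undifferentiated spermatogonia that glucocorticoids also induce, had the same shape, with 9.49, 11.8 and 44.7 CPM in immature and 8.63, 11.5 and 9.84 CPM in mature libraries. It did not pass (log2 fold change -1.14, SE 0.59, adjusted p = 0.118).

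What else was high in immature 3 was listed after its values were seen, so these levels are descriptions. The 157 genes that stood apart in immature 3 were headed by SFRP2, OGN and THBS1, none of them in the lists below. In immature 1 to 3 SFRP2 was at 52.0, 13.6 and 950 CPM, OGN at 215, 145 and 852 CPM and THBS1 at 28.6, 50.4 and 576 CPM. The 12 immediate-early genes, which respond within minutes to growth factors, handling or stress, summed to 414, 513 and 2101 CPM in immature and 286 to 304 CPM in mature libraries. All 12 were highest in immature 3, among them FOSB at 0.602, 2.13 and 82.0 CPM in immature 1 to 3. The 7 glucocorticoid-responsive genes, ZBTB16 among them, summed to 353, 335 and 928 CPM in immature and 382 to 402 CPM in mature libraries, again with all 7 highest in immature 3. The part of either list, or of a difference in the cells of that tissue piece, in the high GFRA1, RET, KIT and FOXO1 was not tested. With it left out, GFRA1, RET and FOXO1 were still called lower and KIT and ETV5 were still not called.

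The 10 genes were also set against other denominators. Set against the counts of Sertoli cell markers or of germ cell markers instead, most of the 10 genes changed sign or size. Neither scale is per cell, since marker RNA per cell may differ between ages. On the Sertoli scale the median of all genes moved up by 2.63 on the log2 scale, and on the germ cell scale it fell by 4.02. On the Sertoli scale 6 of the 10 genes were called higher and GFRA1 alone was below 0, where 15564 of all genes were called higher and 405 lower. KIT was 2.47 (SE 0.45, adjusted p = 0.000208) and GFRA1 -0.20 (SE 0.71, adjusted p = 0.798) on that scale. On the germ cell scale all 10 were called lower, where 16875 of all genes were called lower and 1390 higher. SALL4, which rose by CPM, was then -2.74 (SE 0.53, adjusted p = 2.39e-07). Per 1000 germ cell marker counts, SALL4 went from 35.04 ± 4.82 to 5.22 ± 0.518 counts and GFRA1 from 120 ± 78.7 to 1.29 ± 0.398 counts (SD, n = 3 each). Relative to the median of all genes, SALL4 was 1.24 by CPM, 1.24 on the Sertoli scale and 1.32 on the germ cell scale. GFRA1 was -2.69, -2.79 and -2.48 relative to the same medians. By construction a change of scale shifts all genes nearly together, so this likeness between scales was fixed in advance and is no support.

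**Figure D4:**
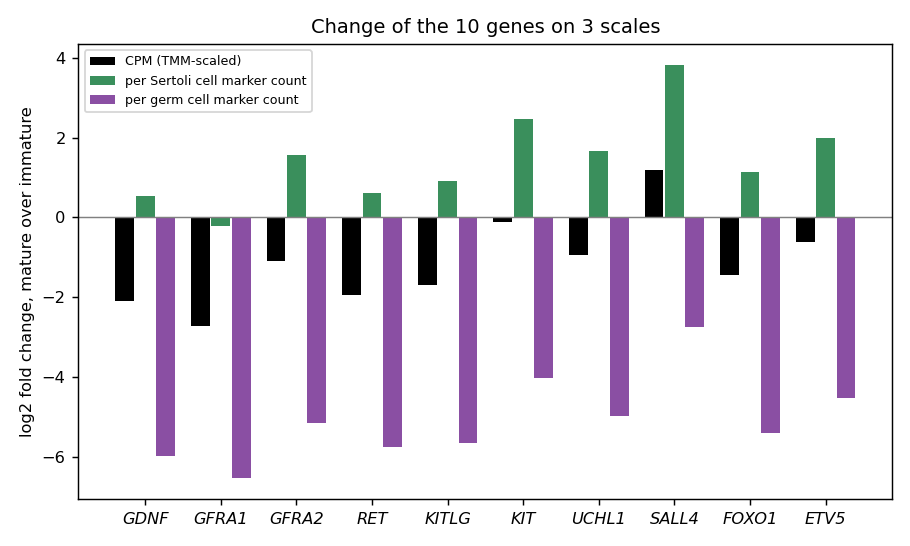
Log2 fold change, mature over immature, of the 10 genes as bars from 0 on each of 3 scales (TMM-scaled CPM in black, per Sertoli cell marker count in green, per germ cell marker count in purple; 3 libraries per age). On the Sertoli scale every gene but GFRA1 is above 0, and on the germ cell scale every gene is below 0.

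The genes whose pattern over the 6 libraries was most like that of 4 of the genes were found among 14913 genes with at least 1 CPM on average, by the root mean square difference of centred log2(CPM + 0.5). Nearest to GFRA1 were APOLD1 (0.14), SLC16A9 (0.15) and LVRN (0.17). All of them were high in immature 3, with APOLD1 at 6.95, 8.93 and 32.6 CPM in immature libraries. RET ranked 169 on this list and FOXO1 398. Among the nearest to KIT were SRF (0.07) and PRKRIR (0.13). SRF, a serum-induced transcription factor counted above among the immediate-early genes, was at 55.5, 54.3 and 118 CPM in immature and 63.6, 64.4 and 75.9 CPM in mature libraries. Nearest to KITLG were CTHRC1 (0.10), ERGIC1 (0.12) and COPZ2 (0.12), and among the nearest to UCHL1 were MARVELD2 (0.08) and SLC2A4 (0.14).

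The rest of the GDNF family held calls in both directions. Of 9 genes listed, 6 were tested, and 4 were called lower and 2 higher (median log2 fold change -1.65). All 6 were thus called, where 62% of all genes tested were called, 30.4% lower and 31.7% higher. GFRA4, the coreceptor of persephin, fell most, from 147, 114 and 165 CPM in immature to 4.81, 5.89 and 3.37 CPM in mature libraries (log2 fold change -4.92, SE 0.24, adjusted p = 4.29e-07). Persephin itself, PSPN, had 0 to 2 counts in each library and was not tested. NRTN, neurturin, which prefers GFRA2, fell with it, from 24.3, 21.02 and 10.2 CPM to 3.00, 2.81 and 2.68 CPM (-2.70, SE 0.33, adjusted p = 9.24e-05). ARTN, artemin, and its coreceptor GFRA3 rose instead. ARTN had 9, 4 and 5 counts in immature and 167, 155 and 158 counts in mature libraries (log2 fold change 4.71, SE 0.33, adjusted p = 3.31e-06). GFRA3 went from 2.94, 3.30 and 4.36 CPM to 7.75, 7.97 and 9.64 CPM (1.26, SE 0.24, adjusted p = 0.00143). NCAM1 and SDC3, which bind GDNF without RET, were both called lower (-1.35 and -1.96).

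The enzymes and adaptors that relay these receptors inside the cell included calls in both directions. Of 28 genes of the GDNF and RET relay, 13 were called lower, 3 higher and 12 were not called (median log2 fold change -0.61). The adaptors SHC1 (-2.002, SE 0.12) and DOK5 (-2.25, SE 0.43) and the kinase FYN (-2.04, SE 0.17) fell, and the kinases MAPK3 (1.73, SE 0.11) and BRAF (1.56, SE 0.10) rose. Of 30 genes of the KIT relay, 12 were called lower, 5 higher and 13 were not called (median -0.80). FOXO4 (-2.85, SE 0.20), a relative of FOXO1, the ribosomal protein RPS6 (-2.71, SE 0.13) and STAT5A (-2.61, SE 0.17) fell. The kinase MTOR (1.59, SE 0.14), the adaptor SH2B3 (1.67, SE 0.13) and the PI3K subunit PIK3R3 (1.40, SE 0.14) rose. For both relays the share called, 57.1% and 56.7%, was near the 62% of all genes.

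Genes that GDNF controls in cultured mouse stem cells, ETV5 aside, gave 6 lower, 1 higher and 4 not called of 11 tested (median log2 fold change -1.16). The share called, 63.6%, was near the 62% of all genes. MYCN (-3.56, SE 0.28) and CCND2 (-3.26, SE 0.23), drivers of the cell cycle, fell. FOS was -2.61 (SE 0.88, adjusted p = 0.031) and was no longer called without immature 3 (-1.37, adjusted p = 0.0548) or without mature 1 (-2.47, adjusted p = 0.0846), mature 2 (-2.996, adjusted p = 0.0509) or mature 3 (-2.29, adjusted p = 0.0947). The FOS call was also lost with the replicate block (-2.04, adjusted p = 0.072) and in limma-voom (-2.10, adjusted p = 0.0764). TSPAN8, a membrane protein, rose (6.90, SE 0.35). The number called higher was 3 without immature 1 and 2 without immature 2, immature 3 or mature 2. NANOS2, an RNA-binding protein of the stem cell state, had 8, 26 and 27 counts in immature and 2, 0 and 2 counts in mature libraries and was not tested.

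Markers of undifferentiated and of differentiating spermatogonia differed in the direction of most calls. Of 31 undifferentiated and gonocyte genes listed, 26 were found in the count table. ID4, NANOS3, LIN28B, UTF1 and PAX7 were not found, so the list says nothing of them. Of the 19 tested, 10 were called lower, 2 higher and 7 were not called (median log2 fold change -1.58). The share called, 63.2%, was near the 62% of all genes, of which 30.4% were lower and 31.7% higher. The surface proteins ITGA6 (-3.91, SE 0.16) and THY1 (-2.82, SE 0.47) and the factor FOXC2 (-3.29, SE 0.42) fell, THY1 by 1.55 without immature 1 and 3. Somatic cells of the testis also make ITGA6 and THY1, and the part of somatic cells in the calls of this list was not tested. The pair called higher were KLF4 (3.07, SE 0.64) and EPCAM (2.94, SE 1.08, adjusted p = 0.043). KLF4 was high in immature 3 among the immature libraries (7.02, 10.2 and 37.6 CPM) and gave 4.16 without it (adjusted p = 6.5e-07). EPCAM was high in immature 1 (49.7, 3.36 and 2.91 CPM) and gave 5.50 without it (adjusted p = 2.24e-07). EPCAM lost its call without immature 2 (adjusted p = 0.0662), immature 3 (0.0783), mature 1 (0.0681), mature 2 (0.0763) or mature 3 (0.0845), at values of 2.43 to 3.06. This left 1 gene called higher without immature 2, mature 1 or mature 2. Of 14 differentiating genes, 10 were called higher, 3 lower and 1 was not called (median 1.47), a share called of 92.9%. DMRTB1 (5.76, SE 0.26), a factor at the entry to meiosis, and the meiotic genes DMC1 (4.42, SE 0.17) and MEIOB (4.21, SE 0.26) rose. DMC1 and MEIOB also belong to a list of 10 spermatocyte markers, all 10 of which were called higher. The part of spermatocytes in the contrast between undifferentiated and differentiating genes was not tested. CCND2, SOX4 (-2.22, SE 0.24) and CCND1 (-1.83, SE 0.26), which fell, are also made by somatic cells.

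Of 16 other tested genes of the stem cell niche, 11 were called lower, 0 higher and 5 were not called (median log2 fold change -2.28). Most are secreted factors, but the list also holds the receptors NOTCH1 and FSHR and the transcription factors HES1 and HEY1, and HES1 and FSHR are among the 11. The share of the niche list called was 68.8%. Of all genes tested, 62% were called, 30.4% lower and 31.7% higher. At an unadjusted p under 0.05 the count of niche genes higher was also 0 in edgeR, and DESeq2 called 0 of them higher. Without mature 3, 1 niche gene was called higher. PDGFA, a growth factor, went from 102 to 6.71 CPM (-3.93, SE 0.20), INHBA, an activin subunit, from 212 to 21.5 CPM (-3.30, SE 0.20) and VEGFA, a vascular growth factor, from 18.5 to 2.53 CPM (-2.87, SE 0.40). These fell in the same direction as GDNF and KITLG.

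**Figure D5:**
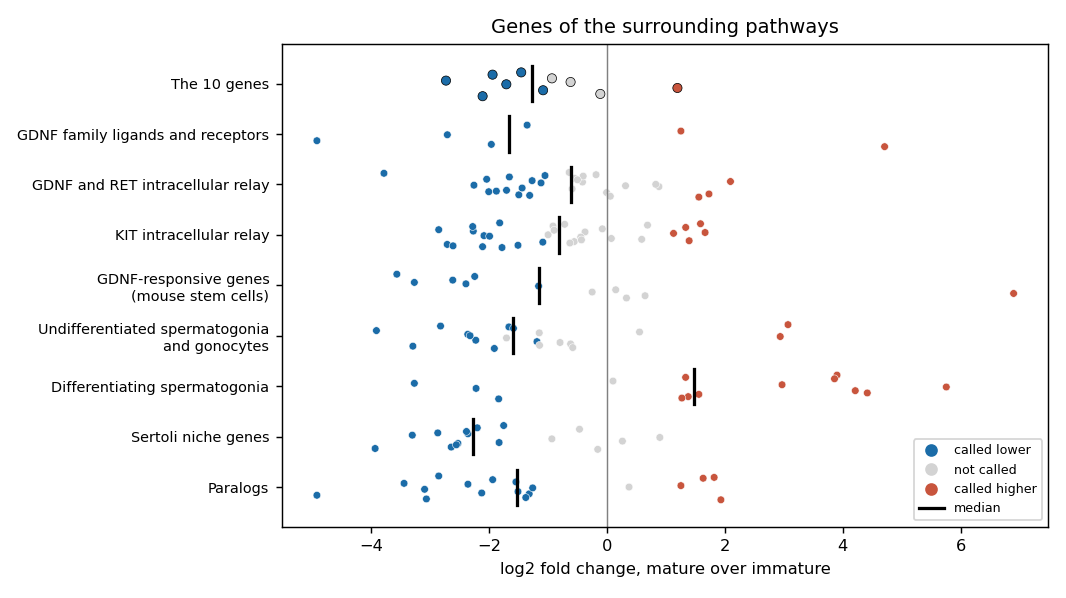
Log2 fold change, mature over immature, of the tested genes of each list around the GDNF and KIT signals, a point for each gene (blue called lower, red called higher, grey not called) and a black bar for the list's median, with the 10 genes on the top row. The medians run from -2.28 for the niche genes to 1.47 for the genes of differentiating spermatogonia. That last list includes DMC1 and MEIOB, which are also spermatocyte markers.

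Relatives of the 10 genes were read beside them. Of 18 relatives tested, 13 were called lower, 4 higher and 1 was not called. The share called was 94.4%, where 62% of all genes tested were called, 30.4% lower and 31.7% higher. SALL4 rose while its relatives SALL1 (-3.06, SE 0.54), SALL2 (-3.44, SE 0.34) and SALL3 (-2.12, SE 0.45) were called lower. FOXO3 (-1.51, SE 0.15) and FOXO4 fell as FOXO1 did. ETV1 (1.63, SE 0.20) rose and ETV4 (-1.26, SE 0.24) fell, with ETV5 between them. The deubiquitinases UCHL3 (1.82, SE 0.12) and BAP1 (1.93, SE 0.15) rose, whereas UCHL5 (0.38, SE 0.15) was not called. Among receptors built like KIT, PDGFRA (-1.94, SE 0.19), PDGFRB (-3.09, SE 0.18), CSF1R (-1.32, SE 0.28) and FLT3 (-1.37, SE 0.35) were all called lower, and KIT was not called. The part of the cell types that make each relative in these differences was not tested.

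Small RNAs with a known link to these genes were read in the 2 pools. In mouse spermatogonia miR-221 and miR-222 repress KIT, and miR-21 lies downstream of ETV5. Their deposited sequences are shown because miR-221 and miR-222 share a seed (bases 2 to 8, in capitals), while the seed of miR-21-5p differs.
bta-miR-221: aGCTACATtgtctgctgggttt
bta-miR-222: aGCTACATctggctactgggt
bta-miR-21-5p: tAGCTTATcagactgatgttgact
With 1 pool per age there was no replicate and no test, and the intervals below cover counting error only. bta-miR-222 had 532 counts in the immature and 248 in the mature pool, or 129 and 255 CPM of known bovine miRNAs (log2 ratio 0.98, 95% exact interval 0.76 to 1.20). bta-miR-221 had 5 and 3 counts, too few to give a direction (log2 ratio 1.35, interval -1.34 to 3.71). bta-miR-21-5p had 9306 and 3426 counts, or 2262 and 3528 CPM (log2 ratio 0.64, interval 0.58 to 0.70). All 3 ratios, taken as shares of known bovine miRNA counts, were above 0. Those of miR-222 and miR-21-5p were beyond counting error. The interval of miR-21-5p lay under 2-fold, whereas that of miR-222, 0.76 to 1.20, included 2-fold. The counts of all 3 were lower in the mature pool. The paper reports that a much smaller share of clean reads mapped to known miRNAs in the mature than in the immature group. Levels per clean read were not computed, so the direction is of this share only. Of the 368 miRNAs with at least 10 counts, 20.4% were over 2-fold higher in the mature pool and 26.9% over 2-fold lower.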

How the data were processed

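The authors aligned reads to Btau_5.0.1 with HISAT2 and deposited raw gene counts. For the counting tool, annotation and strand setting the sources used here give nothing. The deposited small RNA table holds counts per sequence. The authors' comparison columns were not used. Of the per-sample columns, 0 belonged to no sample.

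Genes were filtered with filterByExpr, scaled by TMM and tested with edgeR 4.0.16 (glmQLFit robust, glmQLFTest, Benjamini-Hochberg over 19972 genes) in R 4.3.3. edgeR took the place of the study's EBSeq, at its thresholds (adjusted p under 0.05, log2 fold change beyond 1). CPM were TMM-scaled. The fit was tested on simulated data. Replicates are separate animals, and none of the pairs of libraries within an age agreed within counting noise (chi-square per degree of freedom 9.60 to 38.8). Ratios were compared by exact permutation tests. Intervals are 95%.

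The members and lists were chosen with earlier results of these data known. Named list genes were, per list, up to 3 called genes in each direction with the largest change (5 CPM or more at the higher age) and relatives of the 10 genes. Some of the genes nearest in pattern are not reported here. From each marker list the 2 most abundant were eligible. Genes named outside this rule, chosen after their values were seen, were ZBTB16, NANOS2, NCAM1, PSPN, TPSB2, FOSB, NOTCH1, FSHR, HES1, HEY1, SFRP2, OGN and THBS1. The immediate-early and glucocorticoid lists were chosen in the same way. The alternatives were other scalings, filters, tests and thresholds, a replicate block and each library left out. RefSeq (ARS-UCD2.0) was used for overlapping genes only.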

Additional observations from a re-analysis of the deposited data

How the results depend on the processing

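Beside the 6330 genes called higher and 6062 lower, 20 alternatives were run for each of the 10 genes (19 for GDNF, which the filter of 1 CPM in 3 libraries removed). FOXO1, KITLG, RET, GDNF and GFRA1 kept their direction and call in all but the scaling by Sertoli cell markers, although leaving out libraries moved GFRA1 between -3.08 and -1.69 and RET between -2.29 and -1.09. GFRA2 lost its call with DESeq2 size factors (-0.99), in DESeq2's Wald test (-0.99), in the test against a log2 fold change of 1 (-1.08, adjusted p = 0.297) and without immature 1 (-0.98) or mature 1 (-0.83). It kept the call without each of the other libraries, all values lying from -1.22 to -0.83. SALL4 lost its call with upper-quartile factors (1.00, from 0.9965) and in the test against a log2 fold change of 1 (1.20, adjusted p = 0.138), so that 0 of the 10 genes were then called higher. DESeq2's Wald test and limma-voom each called 1 higher. UCHL1 passed with upper-quartile factors (-1.13), with no threshold on the fold (-0.93) and without immature 2 (-1.18). Without each of the other libraries it was not called, all values lying from -1.18 to -0.70. Leaving out libraries moved KIT from -0.32 to 0.36, and leaving out immature 1 and 3, chosen after seeing the data, gave 0.31. Scaled by Sertoli cell markers, 15564 genes were called higher and 405 lower, and of the 10 genes 6 and 0. GDNF was then 0.54, GFRA1 -0.20, GFRA2 1.56, RET 0.61, KITLG 0.91, KIT 2.47, UCHL1 1.65, FOXO1 1.13 and ETV5 1.98. In edgeR, GDNF (SE 0.52, adjusted p = 0.344), RET (SE 0.59, adjusted p = 0.356) and GFRA1 (SE 0.71, adjusted p = 0.798) did not pass on that scale. KITLG (SE 0.37, adjusted p = 0.0361) was under the fold threshold. Scaled by germ cell markers, 1390 genes were called higher and 16875 lower, and of the 10 genes 0 and 10, with KIT -4.02, UCHL1 -4.98, SALL4 -2.74 and ETV5 -4.53. By construction these scalings shift all genes together, the median by 2.63 and -4.02, and upper-quartile factors shift it by -0.20. With libraries left out, the log2 ratio of GDNF to GFRA1 ran from -0.45 to 0.93 and that of GDNF to RET from -1.09 to 0.066. With RET as the receptor the GDNF ratio was -0.44. bta-miR-21-5p was 0.58 when scaled to all deposited small RNA counts. Known bovine miRNAs made up 4114402 of those 4153017 counts in the immature pool and 971132 of 1021222 in the mature pool. That total is therefore close to the main one and does not stand for all clean reads.

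The labels name no pairing, and the deviations of same-numbered libraries correlated at -0.03, -0.02 and -0.01. With 3 libraries per age, these values cannot show whether the numbers mark a shared batch. With the replicate block, 6337 genes were called higher and 5981 lower, GFRA1 was -2.36 and RET -1.70, and no call among the 10 genes changed. Of the list genes the text names, FOS lost its call with the block. Depth limits GDNF, KIT and NANOS2, which had at most 66 counts in any library, and it limits bta-miR-221.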
